A study of Homo sapiens with 12 samples.

Results

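Integrins are cell surface receptors built from 1 alpha and 1 beta subunit, and they tie the cytoskeleton to the extracellular matrix. The pairing sets what a receptor binds: ITGA3 and ITGA6 make laminin receptors with ITGB1, ITGA6 with ITGB4 is the laminin receptor of hemidesmosomes, ITGA2 with ITGB1 binds collagen, and ITGA5 with ITGB1 binds fibronectin. ITGB3, ITGB5, ITGB6 and ITGB8 pair with ITGAV and bind fibronectin, vitronectin or the latent form of TGF-beta through the peptide motif RGD. The 10 genes described here are ITGA3, ITGA6 and ITGB4, which are laminin-binding, ITGA2, ITGB1, and ITGA5, ITGB3, ITGB5, ITGB6 and ITGB8, which are fibronectin-binding or otherwise RGD-binding. They were taken by name from the platform annotation of the array, and all 10 were measured, among 18334 genes in all. Together they were read by 38 array features: 12 each for ITGB1 and ITGB3, 4 each for ITGA2 and ITGB8, and a single one for each of the other 6.

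The arrays held RNA of 8 established human cancer cell lines, labelled with Cy5, against a common human reference RNA labelled with Cy3. Of the pancreatic lines, Capan2, HPAC and HPAFII had 1 array each and no media label, MiaPaca2 had 2 arrays with a DMSO label (replicates 1 and 2) and 1 without, and Panc1 had 2 arrays with a DMSO label (replicates 1 and 4). HT29 had 2 arrays with a DMSO label (replicates 2 and 4), and the lone arrays of HCT-116 and SW620 carried none. HCT-116, HT29 and SW620 are catalogued as colorectal, although the design text counts all 8 as pancreatic. Where lines with different media labels are compared below, line and label cannot be told apart. The labels name no genotype and no treatment other than DMSO, which is a common drug solvent, and no separate cultures. The p-values below for groups thus measure the spread between arrays, which may be technical. Those for pancreatic against colorectal lines measure the spread between line means.

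Values are deposited ratios, read as log2 of cell line over reference, so that 1 unit is a doubling. That direction follows from the dyes and is likely, not stated, and with the opposite direction every sign below would turn. A ratio to the reference does not give the abundance of a gene relative to another gene, so only differences between lines are compared. Fewer cells carrying a transcript and less transcript per cell cannot be told apart in such bulk RNA. The median of 5 epithelial markers (EPCAM, CDH1, KRT8, KRT18, KRT19) lay at -0.30 in Panc1 and -0.85 in MiaPaca2, against 0.81 to 3.02 in the other lines, and VIM, a mesenchymal filament gene, stood at 1.70 in Panc1 and 1.59 in MiaPaca2 and between -5.35 and -2.17 elsewhere. ZEB1, a mesenchymal repressor gene, was at 0.02 in Panc1 and 0.89 in MiaPaca2 and between -1.99 and -0.69 elsewhere, but CDH2, the third mesenchymal marker, was above 0 in Panc1 alone, at 0.38, with -3.45 in MiaPaca2 and -4.70 to -3.37 in the other lines. The median of 4 intestinal markers was highest in HPAFII, at 2.83, and between 0.33 and 1.45 elsewhere; CDH17 and VIL1 were higher in HPAFII (7.21 and 3.05) than in the colorectal lines (0.44 to 2.41 and -2.55 to 2.14). Of 3 leukocyte markers, PTPRC and CD53 lay below 0 in all 8 lines, and LCP1 was at 0.56 in SW620 and at most at -2.99 elsewhere. The median of 3 endothelial markers lay between -1.24 and 0.12, and that of 3 platelet markers between 0.07 and 0.93.

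Nearly all of these subunits varied among the 9 groups of line and media label by more than paired arrays did. In a limma F test over the groups, 9 of 10 passed an adjusted p under 0.05, where 57.2% of all genes did. ITGA2 had the highest F, 115.4 (adjusted p = 1.4e-05), and ITGB6 followed at 87.2 (adjusted p = 2.235e-05). ITGB4 was the exception, with F = 3.69 (limma, adjusted p = 0.06503). In size, ITGB6 spanned 6.49 log2 units between its lowest and highest line and ITGA2 6.12, wider than 98.8% and 98.2% of genes. ITGB1, ITGA3, ITGB8, ITGA6, ITGB3 and ITGB5 spanned 3.05 to 3.83, while ITGB4 and ITGA5, at 1.74 and 1.66, were close to the median of all genes, 1.56. With quantile normalization the group means of ITGB6 ran from -0.22 in HCT-116 to 4.75 in HPAFII. Those of ITGA2 ran from -3.11 in MiaPaca2 without the label to 3.87 in Panc1, so ITGA2 then spanned more. The ITGB8 call (F = 7.76) was lost when its most variable feature alone was used (F = 1.22, limma, adjusted p = 0.4492). The ITGA5 call was lost without Panc1 replicate 1 (F = 3.45) or replicate 4 (F = 2.28), and ITGB4 passed without MiaPaca2 DMSO replicate 1 (F = 11.8) or replicate 2 (F = 23.6).

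**Figure D1:**
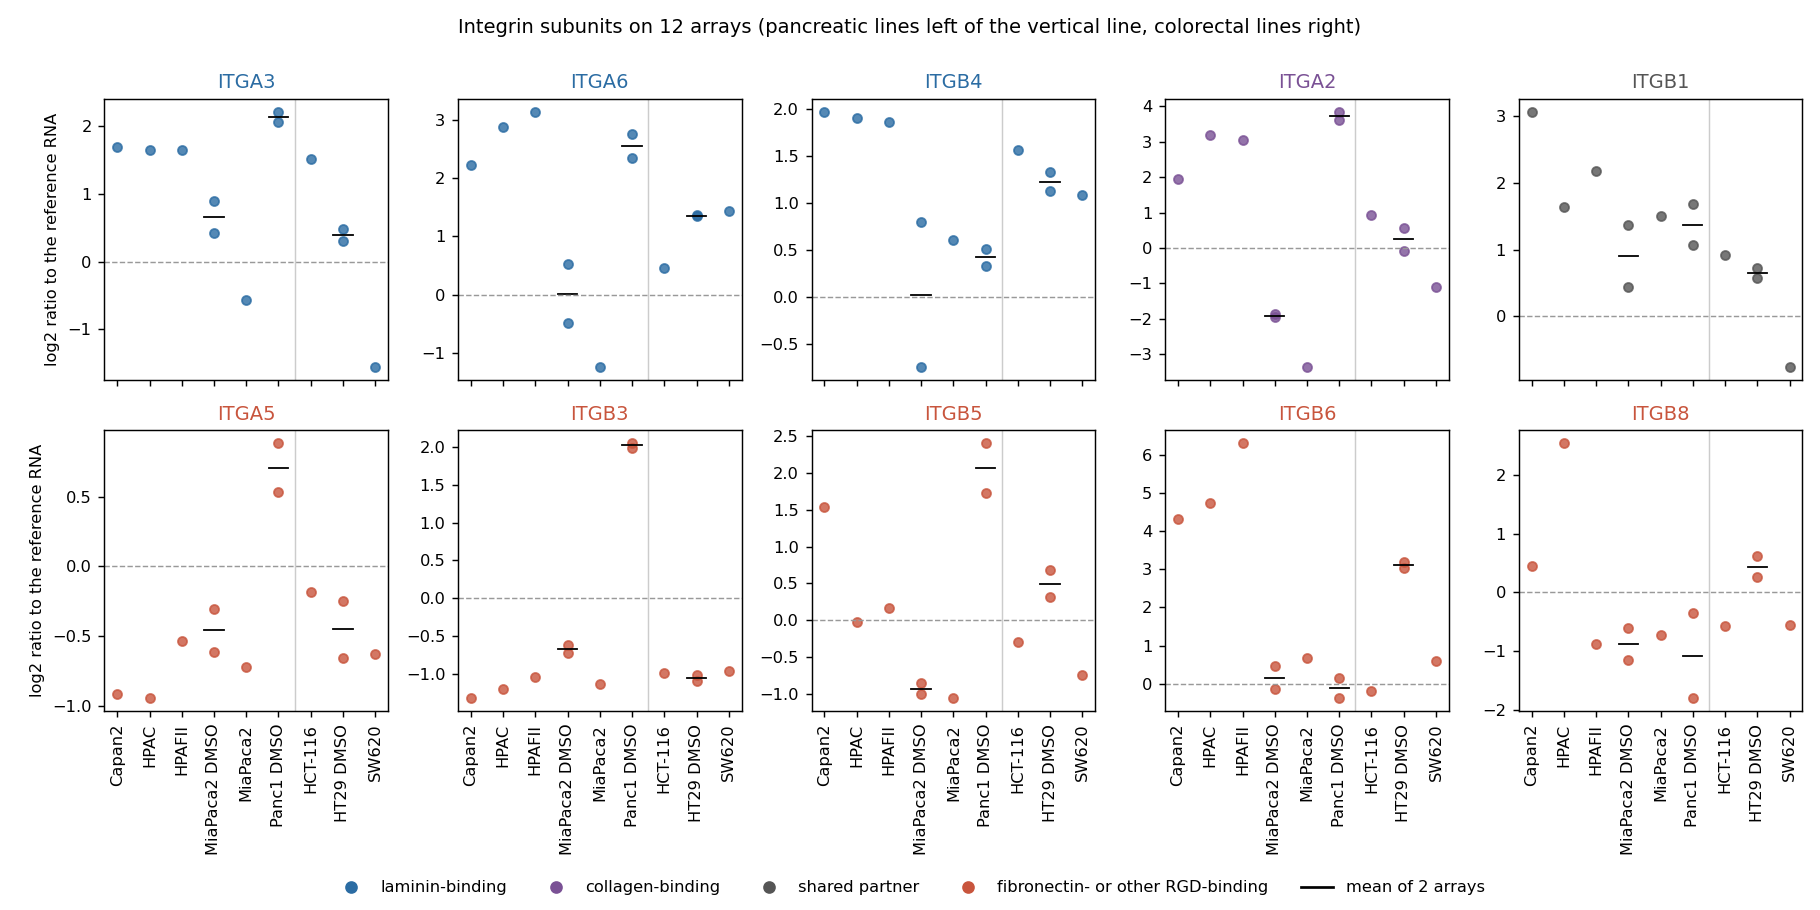
Log2 ratio of each subunit to the reference RNA (vertical axes, which differ in range) in the 9 groups (horizontal axes), with 1 point per array and a bar at the mean of paired arrays. ITGB3 and ITGA5 are above 0 only on the Panc1 arrays, ITGB6 is highest in HPAFII at 6.30, and ITGA2 runs between -3.37 and 3.84.

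RefSeq promoter sequences were at hand for 7 of the 10 genes, and 4 of them had a single entry. The 3 of those whose levels spanned the widest range over lines are shown, as the 250 bases before the annotated start on the strand of the gene (build GRCh38.p14). Capitals mark matches, on either strand, to the AP-1 motif TGANTCA, the E-box CACCTG, a form bound by the ZEB and SNAI repressors, and the GC box GGGCGG, a form bound by SP1. In all promoters of this length, 6.57%, 17.5% and 42.6% held at least 1 match to these motifs.
ITGB6, chr2:160200273-160200522, minus strand: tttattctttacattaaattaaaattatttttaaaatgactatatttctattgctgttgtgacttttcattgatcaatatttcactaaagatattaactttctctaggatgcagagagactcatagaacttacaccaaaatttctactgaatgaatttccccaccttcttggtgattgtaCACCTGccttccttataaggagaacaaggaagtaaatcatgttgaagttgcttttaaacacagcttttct
ITGA2, chr5:52989102-52989351, plus strand: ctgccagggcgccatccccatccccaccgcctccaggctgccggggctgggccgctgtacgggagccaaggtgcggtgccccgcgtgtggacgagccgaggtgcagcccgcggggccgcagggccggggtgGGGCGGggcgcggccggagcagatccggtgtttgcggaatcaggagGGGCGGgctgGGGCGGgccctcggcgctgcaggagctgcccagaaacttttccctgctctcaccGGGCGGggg
ITGB8, chr7:20330650-20330899, plus strand: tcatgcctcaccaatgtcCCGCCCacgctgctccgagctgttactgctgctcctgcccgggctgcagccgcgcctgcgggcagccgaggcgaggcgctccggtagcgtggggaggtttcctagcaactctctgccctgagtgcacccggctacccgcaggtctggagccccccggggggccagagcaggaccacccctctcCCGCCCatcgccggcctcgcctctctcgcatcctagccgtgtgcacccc
The 3 sequences differ in base composition, with 30.0% G and C for ITGB6, 76.4% for ITGA2 and 71.2% for ITGB8, around a median of 58.0% over all promoters. ITGB6 held 1 E-box, ITGA2 4 GC boxes and ITGB8 2 GC boxes, and none held the AP-1 letters. These matches describe the sequence alone.

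Among the laminin-binding subunits, ITGA3 and ITGA6 were high in 4 pancreatic lines and low in MiaPaca2. ITGA3, the alpha subunit of a laminin receptor of epithelial cells, had log2 ratios of 1.70 in Capan2, 1.65 in HPAC, 1.65 in HPAFII and 2.06 and 2.21 on the Panc1 arrays. On the MiaPaca2 arrays it was at 0.42 and 0.89 with the DMSO label and at -0.56 without. The colorectal lines were spread, with 1.52 in HCT-116, 0.30 and 0.48 in HT29 and -1.56 in SW620. SW620 was thus the lowest, and it differed from every other group but MiaPaca2 without the label (limma, pairs of groups, adjusted p = 9.151e-05 to 0.003395, and adjusted p = 0.1045 for the exception).

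ITGA6, the alpha subunit of the hemidesmosome receptor, was at 2.22 in Capan2, 2.88 in HPAC and 3.14 in HPAFII, and at 2.35 and 2.76 in Panc1. MiaPaca2 had 0.53 and -0.49 with the DMSO label and -1.24 without, and its mean of -0.40 was below every other line. HCT-116 was at 0.46, HT29 at 1.35 and 1.36, and SW620 at 1.43. No neighbours in the order of groups differed beyond the spread for ITGA3 or ITGA6, but 21 and 20 of their 36 pairs of groups did, where a lone array was assumed to vary like the paired ones. Over all genes and pairs, 19.8% were called in this way.

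ITGB4, the beta subunit of the hemidesmosome receptor, followed another order. It was at 1.96, 1.90 and 1.86 in Capan2, HPAC and HPAFII, and Panc1, high for ITGA3 and ITGA6, had only 0.34 and 0.51. MiaPaca2 gave -0.74 and 0.80 with the DMSO label, the widest gap between paired arrays of any member, and 0.60 without. The colorectal lines lay close together, at 1.56 in HCT-116, 1.32 and 1.12 in HT29 and 1.08 in SW620. Only 3 of 36 pairs of groups differed, those of Capan2, HPAC and HPAFII with MiaPaca2 DMSO (limma, adjusted p = 0.03175, 0.03898 and 0.03433).

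ITGA2, the alpha subunit of a collagen receptor of epithelial cells and platelets, had the most pairs of groups apart of any member, 27 of 36. It was at 3.62 and 3.84 in Panc1, 3.18 in HPAC, 3.04 in HPAFII and 1.94 in Capan2. In MiaPaca2 it was at -1.88 and -1.94 with the DMSO label and -3.37 without. HCT-116 stood at 0.92, HT29 at 0.57 and -0.08, and SW620 at -1.09. The lines covered the range in steps, with only 1 pair of neighbours apart, HT29 above SW620 by 1.33 (limma, adjusted p = 0.02888). HT29 carried the DMSO label and SW620 did not. Within MiaPaca2, ITGA2 was 1.46 higher with that label, a difference that was not called. On the HPAC, HPAFII and Panc1 arrays the lowest of its 4 features was at 2.39, and on the 3 MiaPaca2 arrays the highest was at -0.65, as the plot of single features shows.

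ITGB1, the common partner of ITGA2, ITGA3, ITGA5 and ITGA6, was highest in Capan2 at 3.07, with 2.19 in HPAFII and 1.64 in HPAC. MiaPaca2 had 1.37 and 0.45 with the DMSO label and 1.51 without, and Panc1 had 1.07 and 1.68. HCT-116 was at 0.93, HT29 at 0.57 and 0.73, and SW620 at -0.76. ITGB1 was below 0 on the SW620 array alone, which was also the array with the lowest ITGA3. MiaPaca2, the line with the lowest ITGA2 and ITGA6, had the lowest ITGB1 mean of the pancreatic lines, 1.11, above those of the colorectal lines. Of 36 pairs of groups 11 differed, and no neighbours did.

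Of the RGD-binding subunits, ITGB3 and ITGA5 were high in Panc1 and low elsewhere. ITGB3, known from the fibrinogen receptor of platelets and the vitronectin receptor of other cells, was at 1.99 and 2.05 on the Panc1 arrays. On the other 10 arrays it lay between -1.32 in Capan2 and -0.62 in MiaPaca2 DMSO replicate 1. Panc1 differed from all 8 other groups, and these did not differ among each other in any pair. MiaPaca2 DMSO, the next group, differed from Panc1 by -2.69 (SE 0.208, limma, adjusted p = 8.389e-05), and the difference was below 0 for all 12 features, between -3.68 and -1.38.

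ITGA5, the alpha subunit of the classical fibronectin receptor, was at 0.53 and 0.89 in Panc1. The other 10 arrays lay between -0.95 in HPAC and -0.18 in HCT-116, so Panc1 did not overlap with any. Panc1 differed from 7 of the 8 groups (limma, adjusted p = 0.005934 to 0.01688), and missed the threshold against HCT-116 (adjusted p = 0.068). The gene was read by a single feature.

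ITGB5, the beta subunit of another vitronectin receptor, was also highest in Panc1, at 1.73 and 2.41, but Capan2 reached 1.54. HPAC and HPAFII were at -0.02 and 0.17, and MiaPaca2 at -0.86 and -1.01 with the DMSO label and -1.06 without. HCT-116 was at -0.30, HT29 at 0.31 and 0.68, and SW620 at -0.74. Panc1 and Capan2 were neighbours in that order and did not differ beyond the spread (0.54, SE 0.345, limma, adjusted p = 0.2963), and Panc1 was apart from the other 7 groups.

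ITGB6, a beta subunit found mainly in epithelia that binds fibronectin and activates latent TGF-beta, was high in 3 pancreatic lines and in HT29. It was at 6.30 in HPAFII, 4.74 in HPAC, 4.32 in Capan2 and 3.19 and 3.03 in HT29. The other lines were near the reference, with 0.45 and -0.15 in MiaPaca2 DMSO, 0.67 in MiaPaca2 without the label, -0.39 and 0.15 in Panc1, -0.19 in HCT-116 and 0.61 in SW620. The 4 high lines and the 4 low lines were divided by a step of 2.44 between HT29 and MiaPaca2 without the label (SE 0.353, limma, adjusted p = 0.001687), and HPAFII also stood above HPAC by 1.57 (limma, adjusted p = 0.04306). No pair among the low groups differed. With quantile normalization HPAFII was at 4.75 and HPAC at 4.13, a narrower step, which was not tested with that normalization. Of the 5 epithelial markers, 4 divided these lines in the same way, where the lines were grouped by the ITGB6 values themselves. The share of all genes that divide them so was not counted, so 4 of 5 has no background. EPCAM was at 3.42 or above in HPAFII, HPAC, Capan2 and HT29 and at most at 2.78 in the other 4 lines, CDH1 at 1.86 or above against at most 0.81, KRT8 at 1.34 or above against at most 0.92, and KRT18 at 1.41 or above against at most 1.21. KRT19 did not, with 0.78 in HT29 and 1.61 in SW620. The part of these markers in the ITGB6 levels was not tested.

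ITGB8, which binds latent TGF-beta, was high in HPAC alone, at 2.54. It was at 0.45 in Capan2, -0.88 in HPAFII, -0.61 and -1.16 in MiaPaca2 DMSO, -0.73 in MiaPaca2 without the label, and -1.81 and -0.35 in Panc1. HCT-116 was at -0.57, HT29 at 0.26 and 0.61, and SW620 at -0.56. HPAC differed from 7 of the 8 other groups (limma, adjusted p = 0.002018 to 0.03789) and not from Capan2 (adjusted p = 0.08393), its next neighbour 2.10 below. All 4 features were high in HPAC, at 1.98 or above, but they disagreed in other lines, and 1 of them gave -5.20 on Panc1 replicate 1 and 0.51 on Panc1 replicate 4. Without that feature the Panc1 mean was -0.65 rather than -1.08, and the HT29 mean 0.31 rather than 0.43; the feature was singled out after its values were seen.

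**Figure D2:**
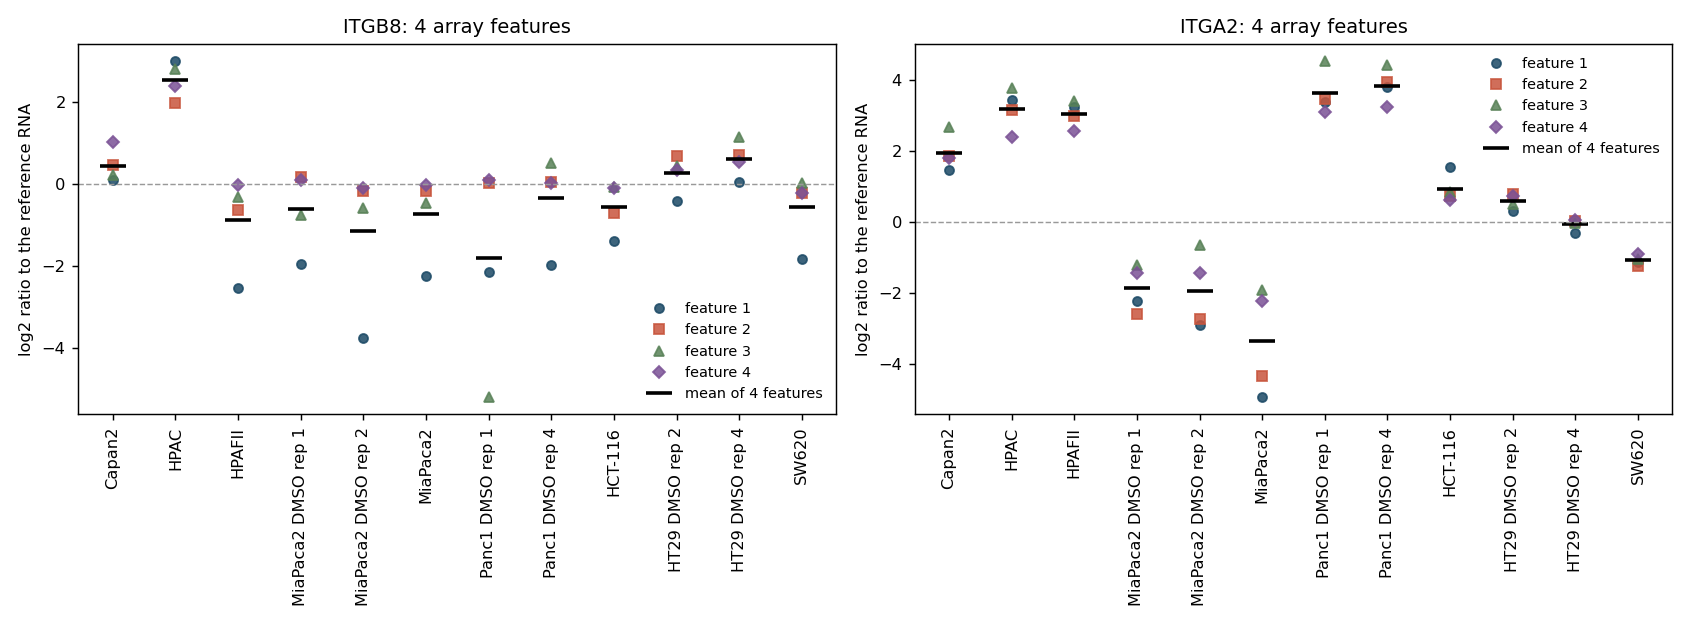
Log2 ratio of the 4 array features of ITGB8 (left) and ITGA2 (right) on each of the 12 arrays, with their mean as a black bar. ITGB8 features part in most lines other than HPAC, down to -5.20 on Panc1 replicate 1. ITGA2 features keep to the same side of 0 in the lines with high or low levels. They part in MiaPaca2 too, from -4.95 to -1.94 without the label.

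Panc1 was compared with HT29, each with 2 DMSO-labelled arrays, and integrin subunits rose and fell. Of 10 members 6 rose and 2 fell, where 37.3% of all genes were called, 21.4% higher and 15.9% lower. The collagen-binding ITGA2 rose by 3.48 (SE 0.266, limma, adjusted p = 3.455e-05) and ITGB3 by 3.07 (SE 0.208, adjusted p = 1.79e-05). ITGA3, ITGB5, ITGA6 and ITGA5 rose by 1.75, 1.57, 1.20 and 1.16. ITGB6 had a log2 difference of -3.22 (SE 0.288, limma, adjusted p = 8.004e-05) and ITGB8 of -1.51 (SE 0.444, adjusted p = 0.02784). ITGB4, at -0.80, and ITGB1, at 0.73, did not pass (limma, adjusted p = 0.1902 and 0.1356). The member median was 1.18, against 0.07 for all genes. Calls near the threshold changed with the arrays and the processing used. ITGA6 was lost without HT29 replicate 2, HT29 replicate 4 or Panc1 replicate 4 (1.19, 1.21 and 0.99). Quantile normalization (0.97) and the 3 MiaPaca2 arrays as 1 group (1.20) lost it too. ITGB8 was lost without HT29 replicate 2 or 4 or Panc1 replicate 1 (-1.69, -1.34 and -0.78) and with its most variable feature (-3.14). ITGA5 was lost without Panc1 replicate 4 (0.99). Leaving out an array also changes the estimate of the spread, so a call can turn at nearly the same difference. ITGB4 passed at the same -0.80 without either MiaPaca2 DMSO array, and ITGB1 passed with its most variable feature (1.71).

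In MiaPaca2 with the DMSO label, 4 members fell against HT29 and none rose, where 31.9% of all genes were called, 17.4% higher and 14.5% lower. ITGB6 had a log2 difference of -2.95 (SE 0.288, limma, adjusted p = 0.0001464), ITGA2 of -2.16 (SE 0.266, adjusted p = 0.0005197), ITGB5 of -1.43 and ITGA6 of -1.34 (adjusted p = 0.005644 and 0.01748). ITGB8 and ITGB4 were at -1.32 and -1.20 and missed the threshold (limma, adjusted p = 0.05319 and 0.06975). ITGB3, ITGA3, ITGB1 and ITGA5 were at 0.39, 0.27, 0.26 and -0.01 (adjusted p = 0.1995 to 0.9893). ITGA6 was not called without HT29 replicate 2 or 4 (-1.35 and -1.33) or MiaPaca2 DMSO replicate 2 (-0.83), ITGB4 was called without MiaPaca2 DMSO replicate 2 (-1.97), and ITGB8 was called without either Panc1 array and among genes with an SD above the median (-1.32 each), and with the 3 MiaPaca2 arrays as 1 group (-1.27).

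MiaPaca2 was then set against Panc1 in the same way, and 6 members fell while none rose; 18.7% of all genes were called, 7.4% higher and 11.3% lower. ITGA2 had the widest difference of any member in the 3 comparisons, -5.64 (SE 0.266, limma, adjusted p = 1.213e-05). ITGB5 followed at -3.00, ITGB3 at -2.69, ITGA6 at -2.54, ITGA3 at -1.48 and ITGA5 at -1.17. ITGB1 and ITGB4 were at -0.47 and -0.40, and ITGB6 and ITGB8, low in both lines, at 0.27 and 0.19 (limma, adjusted p = 0.4125 to 0.8177). The ITGA5 call was lost without Panc1 replicate 4 (-0.99) or MiaPaca2 DMSO replicate 1 (-1.01), and ITGB4 was called without MiaPaca2 DMSO replicate 2 (-1.17). The comparisons share arrays, HT29 in the first and second and each of the other lines likewise, so their differences are not independent.

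**Figure D3:**
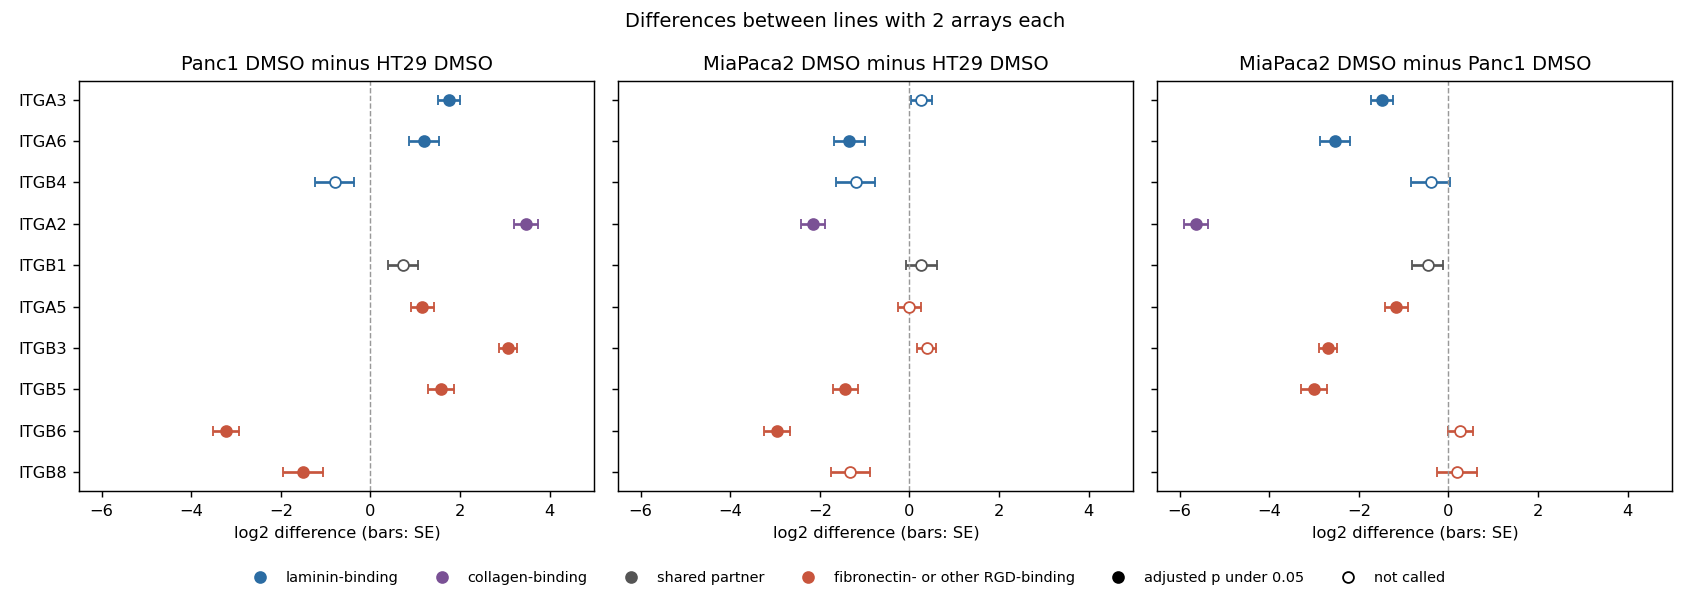
Log2 difference of each subunit (rows) in the 3 comparisons of lines with 2 arrays each, with the SE from limma as bars and filled points for an adjusted p under 0.05. ITGA2 is at 3.48 between Panc1 and HT29 and at -5.64 between MiaPaca2 and Panc1, and ITGB6 is at -3.22 and -2.95 against HT29.

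The MiaPaca2 arrays with the DMSO label were also compared with the array of that line without it. None of the 10 members passed, where 0.6% of all genes did, and 3 had an unadjusted p under 0.05. These were ITGA2, ITGA6 and ITGA3, at 1.46, 1.26 and 1.22 (limma, adjusted p = 0.09304, 0.1894 and 0.1052). Each was higher on both DMSO-labelled arrays than on the lone one. Robust eBayes called none either. How many of all genes had an unadjusted p under 0.05 was not counted, so 3 of 10 has no background.

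Between 5 pancreatic and 3 colorectal lines, with lines as replicates, no member passed, and 1 had an unadjusted p under 0.05. Few genes passed at all, 4 of 18334 or 0.0218%. The share of all genes with an unadjusted p under 0.05 was not counted, so that 1 member has no background. ITGB1 averaged 1.87 ± 0.78 in the pancreatic lines and 0.27 ± 0.91 in the colorectal lines (SD, n = 5 and 3), a difference of 1.60 (SE 0.538, limma, unadjusted p = 0.01688, adjusted p = 0.5074). ITGB6 averaged 3.11 ± 2.85 and 1.17 ± 1.72, and ITGA2 1.90 ± 2.49 and 0.03 ± 1.02, so that for both the SD among pancreatic lines was wider than the difference. ITGB4 was nearly level, 1.27 ± 0.87 in pancreatic and 1.29 ± 0.25 in colorectal lines. The other members differed by -0.03 to 1.36 (limma, adjusted p = 0.6591 to 0.9911).

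The laminin-binding and the RGD-binding subunits had similar median differences in the 3 comparisons of lines with 2 arrays each, and differed far more within a class. In Panc1 against HT29, the median difference was 1.20 for the 3 laminin-binding subunits and 1.16 for the 5 RGD-binding ones, a gap of 0.04. In MiaPaca2 against HT29 the medians were -1.20 and -1.32, and in MiaPaca2 against Panc1 -1.48 and -1.17. These gaps were 0.12 and -0.31. The gap between median levels on 1 array is another measure, and its SD between paired arrays was 0.31. By that measure the gap was 1.53 and 1.32 on the Panc1 arrays and 1.06 and 0.51 on the HT29 arrays. On the MiaPaca2 DMSO arrays it was 1.03 and 1.52. The sign and size of such a gap on 1 array depend on the reference RNA, so only its change between lines can be read. In Panc1 against HT29 the differences of RGD-binding subunits ran from -3.22 for ITGB6 to 3.07 for ITGB3. Those of laminin-binding subunits ran from -0.80 for ITGB4 to 1.75 for ITGA3. No p is given, since the members were picked with results known. The gap between median differences turned to -1.19 in MiaPaca2 against HT29 when the second class held ITGA5, ITGB3 and ITGB6 alone. It turned to -0.16 in Panc1 against HT29 with quantile normalization. Single arrays turned or moved it as well: it was -0.18 in Panc1 against HT29 without HT29 replicate 2, and in MiaPaca2 against HT29 it was -0.15 without HT29 replicate 4 and 1.08 without MiaPaca2 DMSO replicate 1.

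By array, the laminin-binding median was lowest in MiaPaca2, at 0.42 and 0.80 with the DMSO label and -0.56 without, and between 1.08 in SW620 and 2.21 on Panc1 replicate 4 elsewhere. The RGD-binding median was between -0.73 in MiaPaca2 without the label and 0.89 on Panc1 replicate 4. Both medians were thus at their highest in Panc1 and at their lowest in MiaPaca2. For pancreatic against colorectal lines the medians of the member differences were 0.99 and 0.53, against -0.01 for all genes.

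**Figure D4:**
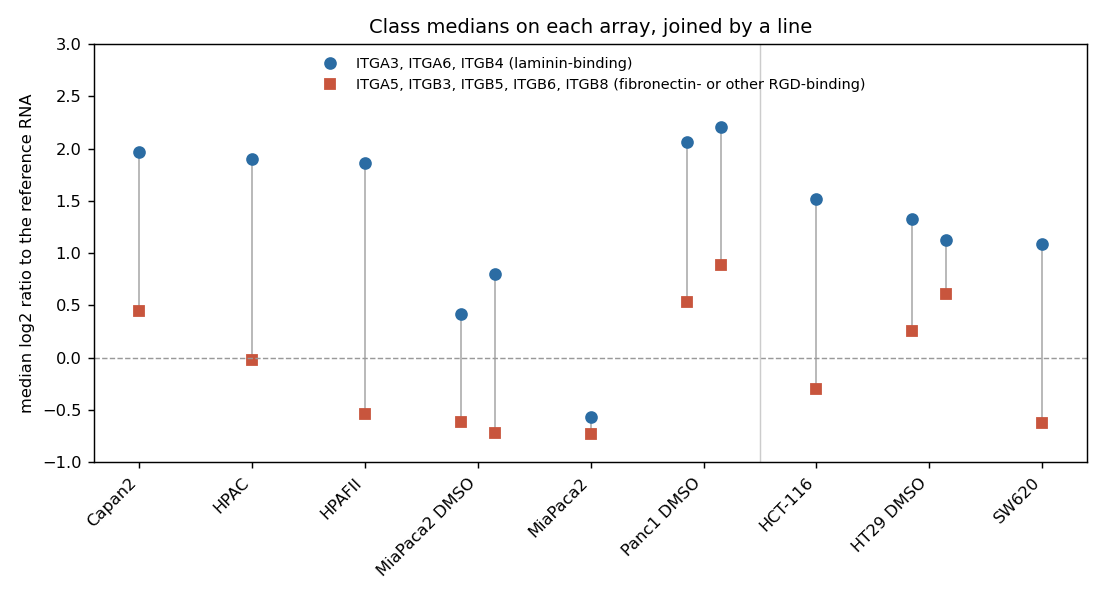
Median log2 ratio to the reference RNA over 3 laminin-binding subunits (circles) and 5 RGD-binding subunits (squares) on each array, joined by a line, by group. MiaPaca2 has the lowest laminin-binding medians, -0.56 to 0.80, and Panc1 the highest, 2.06 and 2.21. The distance between circle and square on 1 array depends on the reference RNA.

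ITGAV, the alpha partner of ITGB3, ITGB5, ITGB6 and ITGB8, was read by 11 features. It was at 1.92 in Capan2, 2.41 in HPAC, 0.54 in HPAFII, 0.46 and -0.64 in MiaPaca2 DMSO, -0.10 in MiaPaca2 without the label, and 2.09 and 2.48 in Panc1. In the colorectal lines it was at -0.06 in HCT-116, -0.16 and 0.47 in HT29, and -1.98 in SW620. It rose in Panc1 against HT29 by 2.13 and had a difference of -2.37 in MiaPaca2 against Panc1 (limma, adjusted p = 0.003228 and 0.004148). HPAC, second to HPAFII for ITGB6, stood 1.87 above HPAFII for ITGAV, which missed the threshold (limma, adjusted p = 0.06353).

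Over the 8 line means, partners were alike to different degrees, and with 8 lines read on shared arrays these correlations are descriptions. Of 10 pairs of partners, ITGA3 and ITGB1 had the highest Pearson r, 0.81 (Spearman 0.76), which was 0.49 without MiaPaca2 and SW620. ITGAV and ITGB5 had 0.71 (Spearman 0.71), and 0.94 without HPAC and SW620. ITGA6 and ITGB4 had 0.54 (Spearman 0.52), ITGAV and ITGB6 0.37 (Spearman 0.40), and ITGA5 and ITGB1 -0.17 (Spearman -0.31). Among the 45 pairs of members, ITGA5 and ITGB3 had the highest Pearson r, 0.92 (Spearman 0.60), which was 0.58 without the 2 lines farthest from the median of ITGA5, HPAC and Panc1. ITGA2 and ITGA6, subunits of a collagen and a laminin receptor, had 0.87 (Spearman 0.81), and 0.90 without HCT-116 and MiaPaca2. The highest Spearman value was 0.90, for ITGA3 and ITGA2, with a Pearson r of 0.80.

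By the same measure, the gene most like ITGB6 was SCEL, a gene of the cornified envelope of epithelia (r = 0.99), and the gene most like ITGB3 was CES1, a carboxylesterase gene (r = 0.996), followed by ESX1 and CCL2 (0.99 each). As many as 182 genes had r over 0.9 with ITGB3 and 118 with ITGB6. ITGA6 was most like RELA (0.98) and ITGA3 like TPBG (0.98). ITGB4 was most like GMPPB (0.98) and TGFA, an EGF receptor ligand (0.97). ITGA2 came closest to ABLIM3 (0.97), ITGB1 to CFAP45 (0.97), ITGB5 to ZNF713 and ITGB8 to PIP (0.97 each). ITGA5 was most like UBAP1L (0.97) and KANK2, an adaptor at integrin adhesions (0.97). For these other 8 members 22 to 95 genes had r over 0.9, so the first ranks are crowded. A high r does not need a wide range. RELA, ZNF713, PIP and UBAP1L spanned 0.91, 0.80, 1.00 and 1.03 log2 units over the lines, below the median of all genes, 1.56. SCEL and CES1 spanned 7.33 and 5.52.

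The genes around the integrins were followed in 7 lists of 86 genes, 80 of them measured. In Panc1 against HT29, where 37.3% of all genes were called, 21.4% higher and 15.9% lower, 5 of 9 laminin chains rose and 1 fell, with a median of 1.97 against 0.07 for all genes. LAMC1, LAMB1 and LAMC3 rose by 3.66, 3.28 and 2.78. Of the RGD ligands and the proteins that hold latent TGF-beta, 5 of 14 rose and 1 fell: LTBP1, which anchors latent TGF-beta in the matrix, rose by 5.14, CCN1, a secreted matrix protein, by 4.89, and NPNT, a basement membrane ligand, was at -3.68. Of 16 other integrin subunits 4 rose and 2 fell, close to the share over all genes, with ITGB2, the leukocyte beta subunit, up by 2.11 and ITGA1, another collagen receptor subunit, at -1.62. All these values are log2 differences from limma with an adjusted p of at most 0.002584.

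Inside the cell, 7 of 15 activators and adaptors rose in Panc1 against HT29 and 5 fell, against 37.3% of all genes called. FERMT2, a kindlin that activates integrins, rose by 5.50 (SE 0.297) and VCL, the adaptor vinculin, by 3.19, while TNS4, an adaptor of the tensin family, was at -3.57. Among 13 kinases and scaffolds 2 rose and 3 fell, close to that share, with NEDD9 at -2.01 and PARVB up by 1.57. In the hemidesmosome and partner list 2 of 7 rose, the tetraspanin gene CD81 by 1.62 and the plakin gene DST by 1.59, and none fell. Of 6 inhibitors of activation KANK2 rose by 1.52, and both of these lists were below the share over all genes. The medians of these 4 lists ran from -0.27 for the inhibitors to 0.39 for the hemidesmosome and partner list.

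In MiaPaca2 against HT29, where 31.9% of all genes were called, 17.4% higher and 14.5% lower, FERMT2 rose by 4.76, VCL by 2.21, and TNS4 was at -4.18; 6 of the 15 activators and adaptors rose and 4 fell. The laminin chains went both ways, 2 higher and 2 lower: LAMC1 and LAMA2 each rose by 2.22, and LAMB3, a chain of the laminin bound at hemidesmosomes, was at -2.23. Of the 14 RGD ligands 3 rose and 1 fell, with CCN1 up by 4.07 and NPNT at -3.32, and of the other integrin subunits 3 of 16 rose and 2 fell, with ITGA1 at -4.31, both near the share over all genes. The tetraspanin genes CD82 and CD151, whose products sit beside laminin-binding integrins, were at -2.10 and -1.16, and DST rose by 1.32. Of the kinases and scaffolds 2 rose, PARVB by 2.36 among them, and 4 fell, and KANK1 was the 1 inhibitor called, at -2.60. With quantile normalization the medians of the laminin chains, the RGD ligands and the other subunits turned, to -0.09, -0.21 and -0.05, against 0.18, 0.06 and 0.05.

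In MiaPaca2 against Panc1, where 18.7% of all genes were called, 7.4% higher and 11.3% lower, 6 of 9 laminin chains fell and 1 rose, with a median of -1.44 against -0.05 for all genes and with LAMB1 at -3.78, LAMC3 at -2.35 and LAMA2 up by 2.84. CD82, CD81 and CD151 were at -1.97, -1.94 and -1.55, and these were the 3 genes that fell of 7 in their list. LTBP1 was at -4.34 and CCN2 at -3.03, in a list with 3 of 14 lower, and 3 of 16 other subunits fell, ITGA1 at -2.70, so that both were near the share called over all genes. FERMT1, the kindlin of epithelia, rose by 1.54, while 4 of 15 activators and adaptors fell, ACTN4 at -1.81. Of 13 kinases and scaffolds 1 rose and 2 fell, near the share over all genes, with a list median of 0.16. PARVB rose by 0.79, while PTK2 and ILK, which act at integrin adhesions, were at -1.07 and -0.86. The inhibitors KANK1, KANK2 and DAB2 were at -2.24, -1.38 and -0.89, of which DAB2 was not called with quantile normalization (-0.80). None of the 80 genes passed between pancreatic and colorectal lines.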

How the data were processed

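RNA of 8 cell lines was read on 12 arrays against a common reference. The deposited values are ratios on a log scale, taken as log2 of line (Cy5) over reference (Cy3) per the labels' dyes; for log base, background correction, normalization and genome build, nothing was given in the sources used here. The medians of the arrays lay between -0.001 and 0.042, and paired arrays correlated at 0.874 to 0.941. Of 45220 features, 31332 had 1 gene symbol, 93 several and 13795 none; 31291 were matched to RefSeq names (GRCh38.p14). Features were averaged into 18334 genes, without a filter. limma 3.58.1 in R 4.3.3 (lmFit, eBayes) fitted 9 groups (3 residual degrees of freedom) and, for origin, 8 line means; p-values were Benjamini-Hochberg adjusted over all genes, with a threshold of 0.05. The fits were tested on simulated data. Alternatives were a median shift or quantile normalization, the most variable or the median feature of a gene, an SD filter, robust eBayes, DMSO-labelled arrays alone, a replicate block, MiaPaca2 as 1 group, other classes, and each array or line left out. The number of arrays limits precision. Arrays with the same replicate number deviated together at r = -0.13 to 0.14, which cannot decide whether they were paired. The main fits used no pairing. Named were all members, ITGAV, up to 3 called genes per list and comparison, and the genes most correlated with each member. Members and lists were chosen with earlier results of these data known.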

Additional observations from a re-analysis of the deposited data

Results flagged for a closer look

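Among the means of the 5 pancreatic lines, 4 of the 10 subunits had 1 line far from the rest, by the gap to the nearest line over the whole range (critical value 0.71). Chance gives about 1 in 20, and 7.69% of all 18334 genes met the same rule. The members were chosen with earlier results of these data known, so neither rate tests their count. ITGA3 was at 0.249 in MiaPaca2, with the nearest line at 1.65 (gap over range 0.743). ITGA6 was at -0.403 in MiaPaca2, with the nearest at 2.22 (0.742). ITGA5 was at 0.709 in Panc1, with the nearest at -0.54 (0.751). ITGB3 was at 2.02 in Panc1, with the nearest at -0.82 (0.85).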

How the results depend on the processing

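The number of members called stayed within 6 to 9 in Panc1 against HT29, 3 to 5 in MiaPaca2 against HT29, 5 to 7 in MiaPaca2 against Panc1 and 8 to 10 over the 9 groups when single arrays were left out, and was 0 in the other comparisons. The number of all genes called also moved with the array left out, so these member counts do not stand alone. The paired groups share 1 replicate number each, and same-numbered arrays deviated together at r = 0.14, -0.01 and -0.13. With the replicate number as a block, 7, 4 and 6 members were called in the 3 comparisons of paired groups. Of all 18334 genes, 5520, 4704 and 2414 were called there. ITGA6 was lost with the block in Panc1 against HT29 (0.93, limma, adjusted p = 0.09724). The gap between laminin-binding and RGD-binding medians moved. In Panc1 against HT29 it was 0.50 with class means, -0.16 with quantile normalization and -0.18 to 0.25 without single arrays. In MiaPaca2 against HT29 it was -1.19 with the second class held to 3 genes, -0.33 with the median over features, an alternative chosen after seeing the data, and -0.15 to 1.08 without single arrays. In MiaPaca2 against Panc1 it was -0.84 with ITGA2 added and -0.41 to -0.21 without single arrays. By origin it was 0.090 with class means, 0.057 with quantile normalization and 0.059 to 0.998 without single lines. Signs turned only for members not called. In MiaPaca2 against HT29, ITGA5 was at 0.0035 with arrays shifted to a median of 0, 0.094 with the replicate block and -0.21 to 0.20 without single arrays, ITGB1 at -0.20 to 0.72 without single arrays, and ITGA3 at -0.14 with 3 MiaPaca2 arrays as 1 group. In MiaPaca2 against Panc1 without single arrays, ITGB4 was at -1.17 to 0.37, ITGB6 at -0.035 to 0.57 and ITGB8 at -0.53 to 0.92. Between MiaPaca2 with and without the DMSO label, ITGB5 was at -0.030 with quantile normalization, ITGB4 at -1.35 to 0.19 and ITGB8 at -0.43 to 0.12 without single arrays. By origin, ITGB8 was at -0.30 with its most variable feature, and without single lines ITGB8 ran from -0.35 to 0.61, ITGB4 from -0.19 to 0.25, ITGA5 from -0.32 to 0.10 and ITGB3 from -0.093 to 0.74. The cause of these changes was not tested.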
